A study of Caenorhabditis elegans with 14 samples.

Results

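The genes described here are named for proteins of the large subunit of the cytoplasmic ribosome in the nematode Caenorhabditis elegans. They were taken by name, as every gene whose public name in the deposited WS190 annotation is rpl followed by a number, and 45 of the 20315 genes in the density tables are named so. The study mapped RNA polymerase II by chromatin immunoprecipitation and sequencing (ChIP-seq), which counts DNA fragments that an antibody pulls down with the crosslinked polymerase, in first-stage (L1) larvae of the wild-type N2 strain. Embryos hatched without food and entered L1 arrest, a developmental halt caused by starvation, and were fixed in 2% formaldehyde at 6 hr or 12 hr. For recovery, larvae arrested for 12 hr received HB101 bacteria at 25 mg/ml and were fixed after 1 hr of feeding. All groups share the strain, the culture at 20 °C and the starvation, since the recovery larvae were starved too. Each of the 12 hr arrest and recovery states has 1 library with the antibody S2, 2 with 4H8 and 1 with 8WG16. At 6 hr there is 1 S2 column, and 1 pooled input column holds chromatin without immunoprecipitation.

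Ribosomal proteins are made in matched amounts and assembled onto ribosomal RNA in the nucleolus. Their genes are short and among the most heavily transcribed in growing cells, and nutrient supply is a well known control of their transcription in animals and yeast. The antibodies recognise the repeated tail of the largest subunit of the polymerase, whose phosphorylation changes between the start and the body of a gene. Density at the start and density over the whole gene model were counted separately for each antibody. The start window and the gene model share the bases just past the start site. Chromatin came from whole larvae, and more cells with polymerase on a gene cannot be told apart from more polymerase per cell.

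Densities are in RPKM, reads scaled to sequence length and to the mapped reads of the library, over the whole gene model and over 200 bp around the most upstream start site. The ChIP libraries held between 1322000 and 5863000 reads, and the median large subunit gene between 50 and 740 reads per library. Starvation genes followed the labels: the summed density of acs-2 and gei-7 was 1599 to 2755 RPKM in the libraries of 12 hr arrest and 51.7 to 65.0 in recovery. Markers of intestine summed to 31.4 to 37 RPKM in arrest and 53.0 to 61.1 in recovery, and markers of the germline to 18.2 to 31.8 and 44.3 to 59.1, with input at 56.2 and 60.2. Of the tested markers, 2 of 3 intestinal and 3 of 3 germline genes were higher in recovery, and none of these lists had a gene at 0. Muscle and neuronal lists had 0 higher and 1 lower of 3 each, and the hypodermal list 0 of 3 in either direction. The part of these markers in the results below was not tested.

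Polymerase density rose within 1 hr of feeding at the 43 large subunit genes dense enough to be tested. Over all 45 large subunit genes, the median of the mean density of the 4 libraries was 47.2 RPKM at 12 hr of arrest and 168 RPKM in recovery. The median of all genes was 6.56 and 7.96 RPKM. Input over the 45 genes was high as well, with a median of 37.7 RPKM against 10.96 for all genes. In arrest 11 of the 45 genes lay below their own input density, against 73.4% of all 20315 genes. In recovery 1 of the 45 did, against 72.4% of all genes. In arrest 2 of the genes were among the 100 densest of the genome and 20 among the 500 densest. In recovery 20 were among the 100 densest and 40 among the 500 densest.

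**Figure D1:**
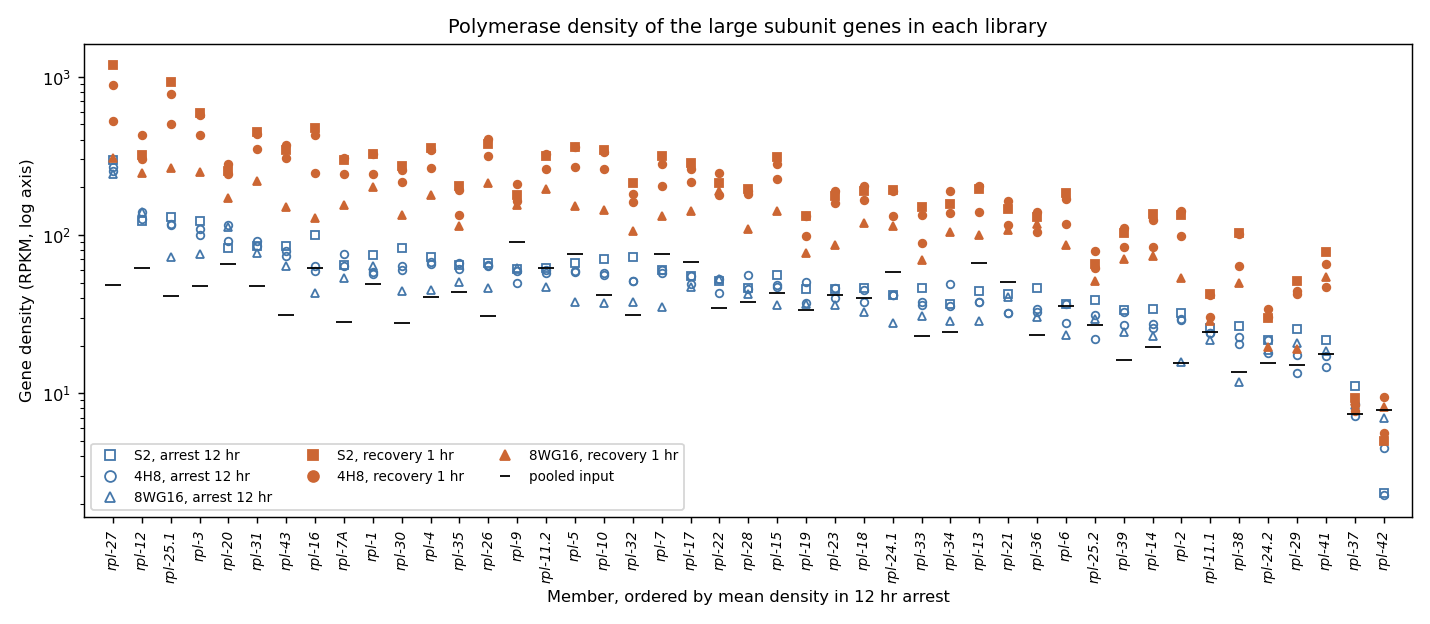
Gene density in RPKM (log axis) of the 45 large subunit genes in each ChIP library of 12 hr arrest (open blue) and 1 hr recovery (filled orange), by antibody, with the pooled input as a black dash; genes are ordered by their mean density in arrest. Recovery lies above arrest for most genes, and rpl-37 and rpl-42 stay near or below input in both states.

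The genes differed widely in level and largely kept their order. Among the 43 tested genes, the densest exceeded the least dense 14.8-fold in arrest and 25.4-fold in recovery, and the range between the quartiles was 36.3 to 62.6 RPKM in arrest and 116 to 273 RPKM in recovery. Spearman's rho between the levels in the 2 states was 0.93 across the 43 genes, which share libraries, and it is given as a description. Levels in arrest had a rho of 0.17 with gene length and 0.61 with the input density of the same genes. The genes are short, with a median gene model of 771 bp (344 to 1695 bp) against 1943 bp for all genes. They are spread over all chromosomes, with 13 on chromosome I, 9 on II, 9 on III, 7 on IV, 5 on V and 2 on X.

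The densest gene was rpl-27 (I:1834882-1835440). In arrest it stood at 297 RPKM with S2, 254 and 269 with 4H8 and 243 with 8WG16, ranking 23rd of all genes by the mean. In recovery it stood at 1175, 889, 528 and 306 RPKM in the same order, ranking 4th. Each recovery value exceeded every arrest value, but with 8WG16 the difference was small beside that with S2.

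Next in mean level came rpl-25.1 (X:4715147-4715772), which encodes a protein beside the exit of the peptide tunnel. Its density was 130 RPKM with S2, 117 and 115 with 4H8 and 72.0 with 8WG16 in arrest, and 926, 781, 499 and 265 RPKM in recovery. The groups did not overlap. The other genes of the 5 highest were rpl-3 (III:3867830-3869524), whose protein lies near the catalytic centre, with means of 102 and 460 RPKM in arrest and recovery, rpl-12 (IV:13239556-13240619), whose protein lies at the base of the stalk, with 132 and 323 RPKM, and rpl-31 (I:13652926-13653693), at the tunnel exit, with 84.6 and 362 RPKM.

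At the other end, rpl-37 (III:3528531-3528952) and rpl-42 (II:11092673-11093778) were below the 10 RPKM mean required for a test and were not tested. At rpl-37 density was 7.16 to 11.12 RPKM in arrest and 7.70 to 9.28 in recovery, with an input of 7.38, so the states overlapped at the level of input. At rpl-42 it was 2.26 to 6.97 RPKM in arrest and 5.01 to 9.42 in recovery, with an input of 7.83. The gene rpl-37 lies within the larger gene M01F1.7 and carries the symbol rpl-37.2 in the current RefSeq annotation. Its counterpart there, rpl-37.1, is listed in the deposited tables only by its sequence name W01D2.1 and is no member by name. That gene stood at 10.2 to 20.2 RPKM in arrest and 26.1 to 73.5 in recovery, all recovery values above all arrest values. The other genes of the 5 lowest, rpl-11.1, rpl-24.2 and rpl-29, are described with the changes.

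For the change on feeding, values were taken as log2(RPKM + 5), a scale that understates changes of genes of low density, and recovery was compared with 12 hr arrest over 8 libraries with antibody as a term (limma, adjusted over all genes tested). All 43 tested genes passed the adjusted threshold of 0.05 as higher in recovery, and 0 were lower. Over all 7214 genes tested 22.9% were called higher and 15.1% lower. The median change of the 43 genes was 1.77, against 0.083 for all genes. A change of at least 1 was found in 39 of the 43 and in 4.59% of all genes tested. In 41 of the 43 all 4 recovery libraries lay above all 4 arrest libraries, as in 14.4% of all genes tested, and 42 were higher in each of the 4 pairs of libraries that share an antibody and replicate number (35.0% of all genes). The exceptions to the first were rpl-24.2 and rpl-29, and to the second rpl-29.

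Scaling affects these counts. After each library was scaled on 1338 chemoreceptor genes, families taken as silent in most cells, 35 of the 43 passed as higher and 0 as lower, with a median of 1.40, while 5.92% of all genes were higher and 23.0% lower. The 8 that no longer passed were rpl-11.1, rpl-12, rpl-19, rpl-20, rpl-24.2, rpl-25.2, rpl-29 and rpl-35.

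**Figure D2:**
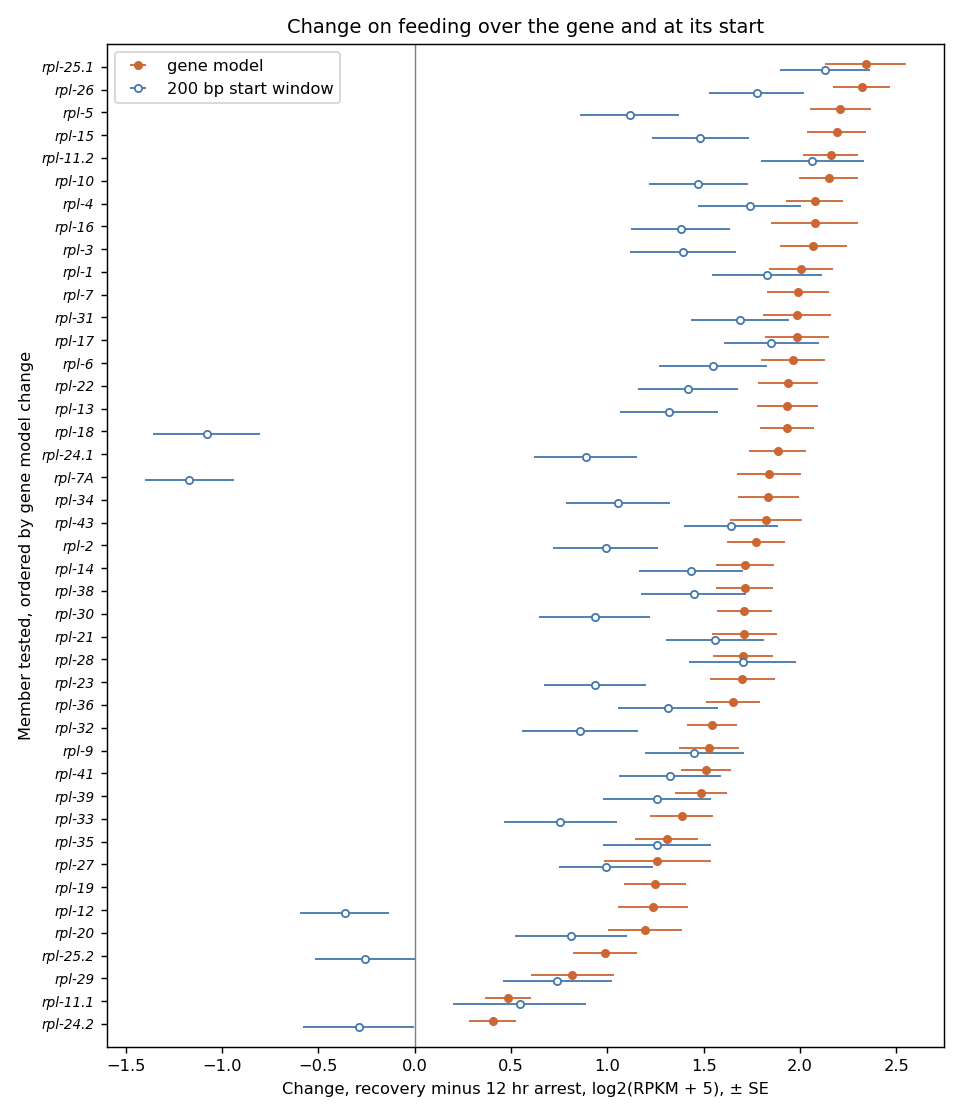
Change from 12 hr arrest to 1 hr recovery on the log2(RPKM + 5) scale, with its standard error from the limma fit, for the gene model (filled orange) and the start window (open blue, where tested) of the 43 genes tested. Gene model changes run from 0.40 to 2.34, and the start windows of rpl-7A and rpl-18 lie below 0.

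Most genes moved by a similar amount, with 32 of the 43 changes between 1.5 and 2.5. The 5 largest were at rpl-25.1 (2.34 ± 0.21, adjusted p = 0.000105), rpl-26 (2.32 ± 0.15), rpl-5 (2.21 ± 0.16), rpl-15 (2.19 ± 0.15) and rpl-11.2 (2.16 ± 0.14), where ± is the standard error. The proteins of rpl-5 and rpl-11.2 bind 5S ribosomal RNA together. At rpl-26 (II:8602716-8603512), another gene for a protein near the tunnel exit, density was 66.8 RPKM with S2, 63.7 and 64.4 with 4H8 and 46.1 with 8WG16 in arrest, and 373, 406, 315 and 213 RPKM in recovery. At rpl-5 (II:8569856-8570981) it was 66.2, 58.1, 59.2 and 37.9 RPKM in arrest and 358, 359, 268 and 151 RPKM in recovery. In arrest every library at rpl-5 was below the input of 75.3 RPKM, and in recovery every library was above it.

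The smallest changes were at rpl-24.2 (0.40 ± 0.12, adjusted p = 0.0301), rpl-11.1 (0.49 ± 0.12, adjusted p = 0.0137), rpl-29 (0.82 ± 0.22, adjusted p = 0.0192), rpl-25.2 (0.99 ± 0.17) and rpl-20 (1.19 ± 0.19). Of the 43, rpl-24.2, which lies within another gene, and rpl-11.1 lay more than 3 scaled median absolute deviations (0.37) from the median change. Their calls and that of rpl-29 rest on few libraries. Without the S2 library of either state, all 3 failed to pass, with rpl-11.1 at 0.44, and rpl-24.2 (0.33 to 0.41 in the 6 failing fits) also failed without any one 4H8 library. The gene rpl-29 (0.68 to 0.80 in the 4 failing fits) also failed without the first 4H8 arrest library or the second 4H8 recovery library. At rpl-29 (IV:13882191-13882588) density was 25.4 RPKM with S2, 13.5 and 17.4 with 4H8 and 20.9 with 8WG16 in arrest, and 50.9, 44.2, 42.5 and 19.1 RPKM in recovery. It rose with S2 and 4H8 and was slightly lower with 8WG16. At rpl-20 (IV:4749003-4749773) density was 82.7, 90.9, 115 and 112 RPKM in arrest and 253, 281, 243 and 172 RPKM in recovery, so the groups did not overlap. Across the 43 genes, Spearman's rho of the change was 0.37 with the level in arrest and 0.43 with gene length, both given as descriptions of genes that share libraries.

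Genes that share a number occur in 3 pairs, and in each the change was large at one gene and small at the other. The sources used here do not say how reads that match both copies were assigned. The log2 ratio between the genes of a pair was compared between 4 arrest and 4 recovery libraries with a two-sided exact permutation test, which was added after the data had been seen. For each of the 3 pairs all recovery ratios lay above all arrest ratios. The permutation test gave an exact p = 0.0286 for each, the smallest p that 4 libraries against 4 allow. The adjusted exact p = 0.0286 over the 3 pairs. Libraries were exchanged freely between the states, without keeping to the antibody. Exchange within each antibody only would allow fewer arrangements, so the smallest p would be larger.

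The first pair is rpl-11.2 (X:2241750-2242614) and rpl-11.1 (V:3585323-3586063). At rpl-11.1 density was 25.6 RPKM with S2, 24.13 and 23.9 with 4H8 and 21.6 with 8WG16 in arrest, and 42.3, 41.8, 30.4 and 28.6 RPKM in recovery. At rpl-11.2 it was 61.8, 60.3, 57.3 and 46.6 RPKM in arrest and 315, 326, 259 and 194 RPKM in recovery. Their log2 ratio was 1.09 ± 0.09 in arrest (SD, n = 4) and 2.76 ± 0.14 in recovery (SD, n = 4). In the S2 column at 6 hr of arrest the genes were nearly level, at 32.2 RPKM for rpl-11.2 and 31.3 for rpl-11.1, and the log2 ratio was 0.03. Input gave 1.19, just above the 12 hr arrest ratios and below the recovery ratios.

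The second pair is rpl-24.1 (I:4585114-4586178), whose protein forms a bridge to the small subunit, and rpl-24.2 (I:9669403-9670097). RefSeq now calls the latter rsl-24D1, the name of an assembly factor that in yeast is exchanged for the former protein during maturation of the subunit. At rpl-24.2 density was 21.6 RPKM with S2, 18.0 and 21.7 with 4H8 and 18.8 with 8WG16 in arrest, and 30.03, 33.95, 30.5 and 19.6 RPKM in recovery, so the groups overlapped. At rpl-24.1 it was 41.8, 41.95, 41.5 and 27.8 RPKM in arrest and 193, 189, 132 and 113 RPKM in recovery. The log2 ratio went from 0.78 ± 0.23 (SD, n = 4) to 2.26 ± 0.23 (SD, n = 4). Input gave 1.62, which again lay above all arrest ratios and below all recovery ratios. The gene rpl-24.2 and its start window lie within C03D6.1 (I:9668620-9670705), so polymerase of the 2 genes cannot be told apart there. The density of C03D6.1 was 52.4 to 73.1 RPKM in arrest and 33.4 to 58.1 in recovery. The gene rpl-24.1 holds the microRNA gene mir-353.

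The third pair is rpl-25.1 and rpl-25.2 (I:8329053-8329641). At rpl-25.2 density was 38.6 RPKM with S2, 31.0 and 21.98 with 4H8 and 29.2 with 8WG16 in arrest, and 65.9, 79.0, 61.5 and 51.5 RPKM in recovery. Here both genes rose without overlap, and the log2 ratio went from 1.68 ± 0.41 (SD, n = 4) to 3.03 ± 0.61 (SD, n = 4). Input gave a log2 ratio of 0.53, below every ChIP library.

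**Figure D3:**
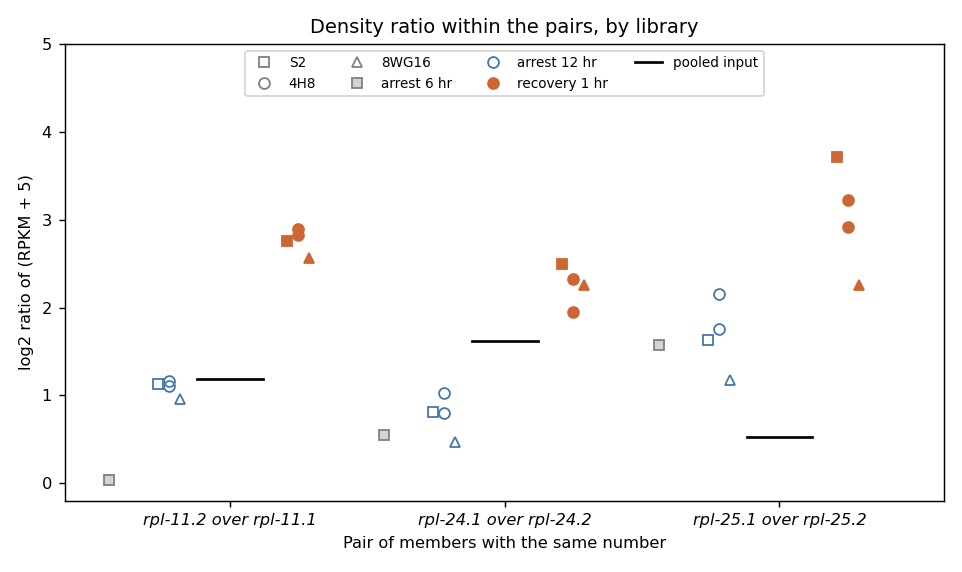
The log2 ratio of (RPKM + 5) between the genes of each pair in every library, with S2 as squares, 4H8 as circles and 8WG16 as triangles, 6 hr arrest in grey, 12 hr arrest open blue, recovery filled orange, and the pooled input as a black line. All recovery ratios lie above all arrest ratios in the 3 pairs.

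Start windows of most large subunit genes had a lower density than the gene model, and input was lower there as well. For gene models of at least 400 bp with either density at 10 RPKM or more, the start exceeded the gene model in 9 of 40 large subunit genes in arrest and in 57.2% of 8510 genes overall. In recovery it did so in 6 of 40 and in 47.5% of 9483 genes. The genes compared were not matched for gene length. Over all 45 large subunit genes the median log2 ratio of start to gene model was -0.67 in arrest and -1.19 in recovery. In input it was -0.53, with a median of 18.9 RPKM in start windows and 37.7 RPKM over gene models. The lower start density in arrest was thus largely present without immunoprecipitation. The 9 genes in arrest were rpl-2, rpl-7A, rpl-12, rpl-16, rpl-24.2, rpl-25.1, rpl-25.2, rpl-27 and rpl-41. For 9 of the 45 genes the start densities were whole reads of a window of 101 to 158 bp, not of 200 bp, among them rpl-12, rpl-16, rpl-25.1, rpl-27 and rpl-41.

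Start density rose with feeding at most genes, with a smaller median change than the gene model. Of 41 start windows tested, 35 were higher and 2 lower in recovery, against 6.99% and 21.7% of all 6808 tested. The median change was 1.32. All recovery libraries lay above all arrest libraries at 25 start windows (4.63% of all genes), and 32 were higher in each of the 4 pairs (13.8% of all genes). On the chemoreceptor scale 24 passed as higher and 2 as lower, against 2.76% and 31.1% of all. Without the 9 shorter windows 27 of 32 were higher and 2 lower. The largest rises were at rpl-25.1 (2.13 ± 0.23, adjusted p = 1.14e-09) and rpl-11.2 (2.06 ± 0.27, adjusted p = 5.86e-08). The start windows of rpl-7, rpl-19, rpl-37 and rpl-42 did not reach 10 RPKM. Those that passed in neither direction were rpl-11.1 (0.54), rpl-12 (-0.36), rpl-24.2 (-0.29) and rpl-25.2 (-0.26), so the less dense gene of each of the 3 pairs was among them.

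The start windows of rpl-7A and rpl-18 fell while their gene models rose. At rpl-7A (IV:4389128-4390624) the start window held 444 RPKM with S2, 768 and 687 with 4H8 and 672 with 8WG16 in arrest, and 221, 343, 418 and 185 RPKM in recovery, a change of -1.17 ± 0.23 (adjusted p = 7.93e-05). All recovery values lay below all arrest values. Its gene model held 64.5, 75.7, 63.5 and 53.4 RPKM in arrest and 295, 306, 242 and 154 RPKM in recovery, a change of 1.84 ± 0.17. In arrest this was the densest start window of the set. At 6 hr of arrest, with S2, the start held 199 RPKM and the gene model 34.6. The nearest gene upstream, set-21, starts on the opposite strand, and its own start window held 5.85 to 10.7 RPKM in arrest.

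At rpl-18 (IV:13777776-13778782) the start window held 36.3 RPKM with S2, 46.4 and 26.9 with 4H8 and 47.4 with 8WG16 in arrest, and 11.4, 15.6, 8.53 and 34.03 RPKM in recovery (change -1.08 ± 0.28, adjusted p = 0.00211). It was lower in each of the 4 pairs of libraries, although the 8WG16 recovery value exceeded one 4H8 arrest value. Its gene model held 45.8, 44.7, 37.9 and 32.4 RPKM in arrest and 191, 205, 165 and 118 RPKM in recovery. Of the start windows tested, rpl-7A and rpl-18 were the ones lower in all 4 pairs (29.3% of all genes), and at rpl-7A alone the groups did not overlap (15.8% of all genes).

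At rpl-12 the start window was dense in both states. It held 324 RPKM with S2, 514 and 480 with 4H8 and 614 with 8WG16 in arrest, and 239, 504, 482 and 305 RPKM in recovery, and the change of -0.36 ± 0.23 did not pass (adjusted p = 0.252). Its gene model rose by 1.24 ± 0.18. At rpl-7 and rpl-19, by contrast, the start window held 1.17 to 8.93 RPKM in arrest and 1.63 to 7.78 in recovery, near what 3 reads give (2.56 to 11.4 RPKM), while the gene models rose by 1.99 ± 0.16 and 1.25 ± 0.16. Input was also low in these start windows, at 4.2 and 2.52 RPKM, against 75.5 and 33.5 RPKM over the gene models. The gene rpl-20 was also among the 3 with the lowest ratio of start to gene model in arrest. Its start window held 9.69 to 21.07 RPKM in arrest and 20.47 to 48.89 in recovery. It was called higher in limma (0.81 ± 0.29, adjusted p = 0.0305), and the change of its ratio (-0.38 ± 0.32) did not pass.

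**Figure D4:**
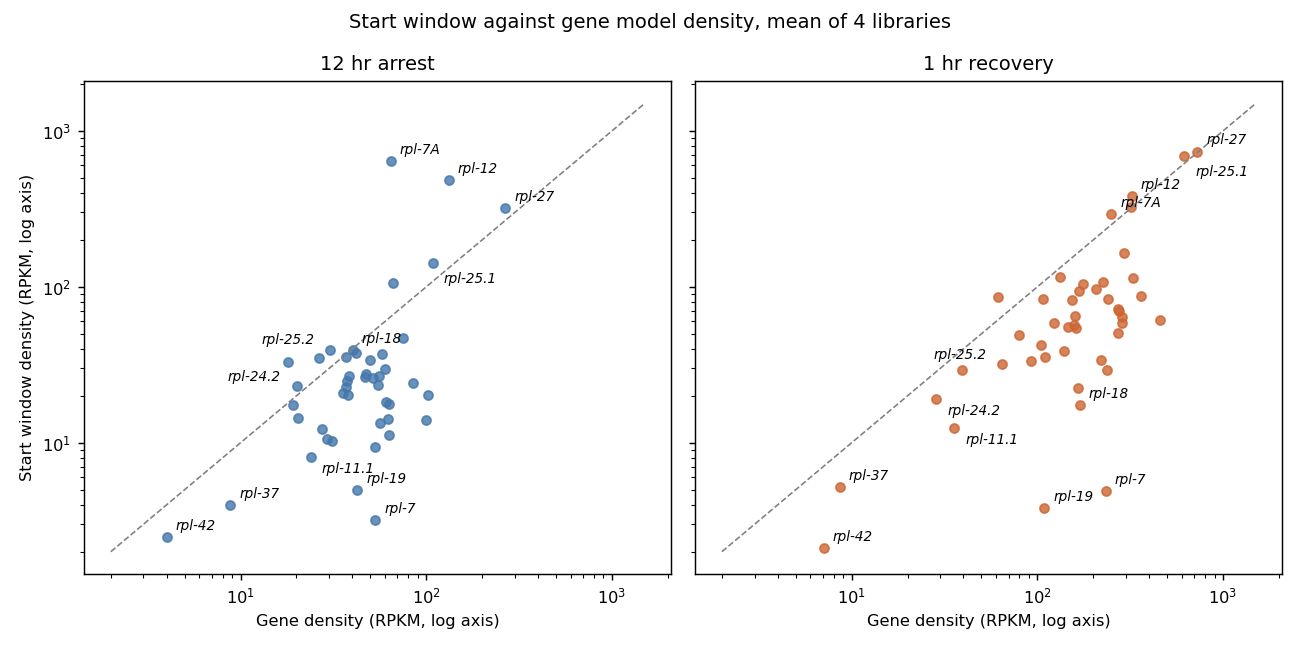
Density of the start window against density of the gene model (RPKM, log axes), each the mean of 4 libraries, in 12 hr arrest and 1 hr recovery for the 45 genes; the dashed line marks equal density. In arrest rpl-7A and rpl-12 lie far above the line and rpl-7 and rpl-19 far below it.

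The log2 ratio of start to gene model fell at 8 of 40 genes tested and rose at 0, against 13.3% and 1.38% of all 9042 genes. The genes were rpl-18 (-3.01 ± 0.30), rpl-7A (-3.01 ± 0.22), rpl-7 (-1.75 ± 0.26), rpl-12 (-1.60 ± 0.23), rpl-19 (-1.40 ± 0.29), rpl-25.2 (-1.25 ± 0.27), rpl-5 (-1.09 ± 0.28) and rpl-24.1 (-0.996 ± 0.30). At rpl-7 and rpl-19 the start windows were near 0 in both states. The median change was -0.58, against -0.20 for all genes, but under quantile normalization it was 0.04 with 5 genes lower. The count depended on the pseudocount, with 4 genes at 1 RPKM and 27 at 20 RPKM. Shares of all genes called at these settings are not given here. The calls of rpl-5 and rpl-24.1 were lost without the S2 library of either state (-0.91 and -0.69), and that of rpl-24.1 also without the first 4H8 arrest (-0.98) or the second 4H8 recovery library (-1.05). At the other end the ratio at rpl-28, rpl-35 and rpl-11.1 changed by -0.00, -0.05 and 0.06.

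Polymerase density over genes lying just past the 3' ends of the large subunit genes rose with them. This was looked for after values had been seen. ChIP-seq density does not show the strand of transcription. Polymerase of a large subunit gene that runs past its 3' end therefore cannot be told apart from polymerase transcribing the neighbour. Of the genes that begin or end within 200 bp downstream of a large subunit gene, 25 were tested, none of them a ribosomal protein gene by name, and 24 were higher in recovery and 0 lower, with a median change of 1.84. They included 15 of 15 on the same strand and 9 of 10 on the opposite strand, where the neighbour's 3' end faces that of the large subunit gene. Among genes at the same distance downstream of other genes called higher, 58.1% of 298 were higher, with a median of 0.43, and downstream of genes that passed in neither direction 11.8% of 881 were. At the other genes called higher the median change was 0.57. Among other genes with a change of at least 1 that do not lie beside a ribosomal protein gene, with a median of 1.32, the share was 49 of 51 (96.1%), and the median change of those neighbours was 1.19. The share was thus close to that of the large subunit genes, and it is not particular to them.

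Examples include C04F12.5, 45 bp past rpl-14 on the opposite strand, with means of 113 RPKM in arrest and 685 in recovery and a change of 2.48 ± 0.17. C27A2.4, a gene model of 4485 bp 6 bp past rpl-22 on the opposite strand, changed by 1.90 ± 0.17. B0513.2, 113 bp past rpl-29 on the same strand, changed by 2.00 ± 0.19, more than rpl-29 itself. The exception was tir-1, a gene model of 31873 bp beside rpl-3, at 0.24 ± 0.09 (adjusted p = 0.0566). With a gap above 200 and up to 1000 bp, 4 of 6 downstream neighbours were higher and 1 lower, and beyond that 2 of 7 were higher. Downstream of other genes called higher, 53.6% and 27.6% were higher at these distances. Downstream of genes that passed in neither direction, 23.3% and 18.5% were. Upstream neighbours that start on the opposite strand were counted without ribosomal protein genes. More than 200 and up to 1000 bp away, 6 of 20 (30.0%) were higher and 1 lower, with a median of 0.23. Beside other genes called higher, 39.7% of 209 such neighbours were higher. Beside genes that passed in neither direction, 26.5% of 431 were, so the share beside large subunit genes lay between these. The genes left out were rps-10 beside rpl-24.1 (gap 600 bp, change 1.68), rps-14 beside rpl-36 (644 bp, 1.90) and rps-30 beside rpl-39 (494 bp, 1.93). All of those left out were called higher. Within 200 bp upstream, 3 genes were tested, all on the same strand, and 2 were higher and 0 lower, with a median of 1.86. They were C53H9.2 beside rpl-27 (1.95), glit-1 beside rpl-25.1 (1.86) and C09D4.6 beside rpl-19 (-0.17, not called). At this distance and strand, 57.6% of 125 were higher upstream of other genes called higher. The share was 85.7% of 28 upstream of other genes with a change of at least 1 that do not lie beside a ribosomal protein gene. It was 13.8% of 464 upstream of genes that passed in neither direction.

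**Figure D5:**
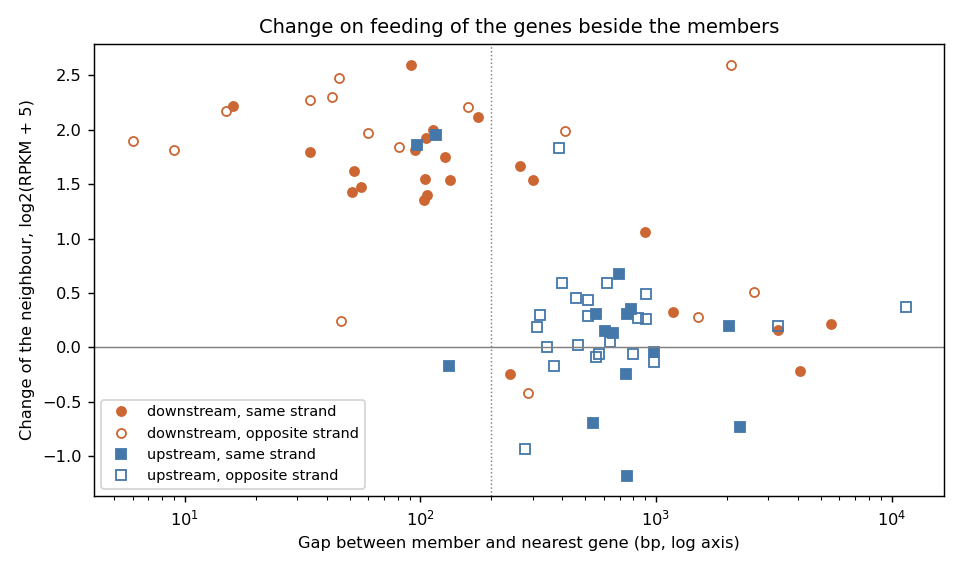
Change on feeding, on the log2(RPKM + 5) scale, of the nearest gene downstream (orange circles) and upstream (blue squares) of each large subunit gene against the gap between them in bp (log axis), filled where the neighbour is on the same strand and open where it is on the opposite strand; the dotted line marks 200 bp. Neighbours that were not tested or are ribosomal protein genes are not plotted. Nearly all downstream neighbours within 200 bp lie above 1, as do 2 of the 3 upstream neighbours within that distance. Most upstream neighbours farther away lie below 1.

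The rise was seen with each antibody. With 4H8, which has 2 libraries per state, 41 of 43 genes were higher and 0 lower (7.85% and 6.13% of all 7240 genes tested), with a median change of 1.85, and rpl-11.1 (0.49, adjusted p = 0.144) and rpl-24.2 (0.58, adjusted p = 0.0577) did not pass. With S2 31 were higher and 0 lower (4.05% and 2.96% of all), with a median of 1.95. With 8WG16 0 passed in this limma fit (0.304% of all were higher and 0.787% lower). Even so, 42 of 43 values were positive, against 61.8% of all genes, and the median was 1.478 against 0.127. An unadjusted p under 0.05 was found at 36 of the 43 and at 1502 of all 7240 genes. S2 and 8WG16 have 1 library per state, whose spread was taken from the 4H8 replicates. The 8WG16 count was 37 under quantile normalization, 18 without the variance trend, 32 on the authors' fold enrichment and 5 to 28 with one 4H8 library left out. On the chemoreceptor scale 0 genes passed in limma with any one antibody. At an unadjusted p under 0.05, 25 with 4H8, 15 with S2 and 0 with 8WG16 were higher. Shares of all genes in these alternative fits are not given here.

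The responses were also compared with each other. The difference between 4H8 and S2 passed at 0 of 43 genes in the limma fit (0 at an unadjusted p under 0.05), as did 0.0138% of all genes in each direction. The 8WG16 change was smaller than the 4H8 change at 40 of 43 genes, with a median difference of -0.39. Over all genes tested the median difference was 0.024, and 53.4% of the differences were above 0. This difference passed at 0 of the 43 genes in the limma fit (1 at an unadjusted p under 0.05) and at 0.0% of all genes. The 2 4H8 recovery libraries differed in level: all 43 genes were lower in the second, with a median ratio of 0.75, while summed chemoreceptor density, relative to the mean ChIP library, was 0.876 in the first and 1.33 in the second. Between the 4H8 arrest libraries the median ratio of the 43 genes, second to first, was 0.987.

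Between 6 hr and 12 hr of arrest, with S2 alone, the median density of the 45 genes was 32.3 and 51.3 RPKM. Of the 43 genes 40 were higher at 12 hr, as were 53.2% of all genes tested, and the median change was 0.62 against 0.024 for all genes. After scaling on chemoreceptor genes the median of the 43 was 1.02. No gene passed (0 of 43 in limma, 0.0% of all genes). An unadjusted p under 0.05 was found at 8 of the 43 and at 500 of all 7240 genes. With 1 column at each time, the values describe these libraries.

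Other genes of the translation machinery gave the following changes in gene density. All 31 of the 31 small subunit genes were higher, with a median of 1.89 (0.48 to 2.50), and 28 after scaling on chemoreceptor genes. The stalk protein genes rpa-0, rla-1 and rla-2 rose by 2.35, 2.21 and 1.77, and the elongation factor genes eft-2, eft-3 and eft-4 by 1.79, 2.00 and 2.04. Of 41 mitochondrial large subunit genes 29 were tested, of which 4 were higher and 3 lower, with a median of 0.04 (-0.31 with 0 higher and 6 lower after that scaling). The list of stalk genes had also named rpa-1 and rpa-2, which encode replication protein A in this species, and these stood at 0.03 (adjusted p = 0.811) and -0.08 (adjusted p = 0.656).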

How the data were processed

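RNA polymerase II ChIP-seq and input chromatin of L1 larvae were analysed from the deposited tables. The authors deposited gene and start window densities in RPKM, per the file headers, with the aligner not given in the sources used here. Fold enrichment relative to input was deposited too, as a ratio with the median input as the smallest denominator, beside a 5' bias ratio, per the file headers. These were used as an alternative. Coordinates are WS190, counted from 1. Names were also looked up in RefSeq (WBcel235) by locus tag: all 45 genes matched, 13 with another symbol. Of the 14 samples, 10 are ChIP and 4 input; 9 ChIP columns and 1 pooled input column were used, and whether the 6 hr column holds both S2 samples is not stated. Every ChIP column used carries the title of a sample of this series.

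Low densities were whole multiples of 1 read, which gave the depth: 98.6% to 99.8% of readable gene values and 90.1% to 91.9% of start values were whole within 0.1 read. Intervals and floors of 3 reads cover counting error only.

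Values were log2(RPKM + 5). Genes with a mean of at least 10 RPKM were fitted with limma 3.58.1 (R 4.3.3; lmFit, eBayes with trend, two-sided), adjusted by Benjamini-Hochberg over all genes tested at 0.05. The start to gene model ratio used gene models of at least 400 bp. The averaged fit held 8 libraries with antibody as a term, the fit by antibody 9 libraries in 7 groups, where prior degrees of freedom were 4.26 beside 2 residual. The series calls the 4H8 pairs biological replicates; whether antibodies shared chromatin is not stated, so the spread may be partly technical. Tests were tried on simulated data. Python 3.11.15, pandas 2.3.3, scipy 1.17.1 and matplotlib 3.10.9 were used.

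The genes, lists and tests were chosen with earlier results of these data known. Genes named are the 5 highest and lowest in level and in change, the 3 highest and lowest in start to gene model ratio and its change, those not called, those beyond 3 scaled median absolute deviations and the numbered pairs; others named beside them were chosen after their values were seen. The counts by library pair, without the shorter start windows, of neighbours, and the test within the numbered pairs were added after the data had been seen. Sequence motifs were not analysed here.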

Additional observations from a re-analysis of the deposited data

How the results depend on the processing

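The direction of the gene density rise held under the alternatives run. The number of large subunit genes called higher was 40 to 43 with one library left out and 43 of 43 with the replicate block, and 34 of 34 when genes that overlap another were left out. Without the filter on low values, start windows called went from 35 higher and 2 lower to 20 and 0, genes with a lower start to gene model ratio from 8 to 4, genes higher with 4H8 from 41 to 3 and with S2 from 31 to 0 (39 at an unadjusted p under 0.05), in fits over many more genes. Scaling on chemoreceptor genes gave 0 for both antibodies. The start to gene model count was 4 and 27 with pseudocounts of 1 and 20 RPKM, 5 under quantile normalization and 4 on the authors' 5' bias, and 6 to 9 with one library left out. Start windows higher were 28 to 35 with one library left out. For 8WG16 the count of 0 became 37 under quantile normalization, 18 without the variance trend, 32 on the authors' enrichment and 5 to 28 with one 4H8 library left out; for 4H8 and S2 these were 35 to 41 and 28 to 38. On the authors' enrichment 1 gene had a smaller response with 8WG16 than with 4H8. Shares of all genes in these alternative fits are not given here, so the counts do not show what is particular to the large subunit genes. The causes were not tested.

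Signs changed for the median start to gene model change (0.04, quantile normalization), the median difference between 4H8 and S2 (-0.047, with -0.362 on the chemoreceptor scale and 0.145 under quantile normalization; -0.254 to 0.181 with one library left out), the start window of rpl-25.2 (0.059, quantile normalization) and that of rpl-24.2 (-0.531 to 0.021 with one library left out, above 0 without the S2 library of either state). Of the other values of single genes under alternatives, 570 kept their side of the threshold and 47 lost it. With the replicate block the 4H8 count was 42; the replicate numbers of the 4H8 libraries deviated together (correlation 0.362 over 7062 genes), but with 2 pairs they share only a number, and the block moved no other count given. Depth limits start windows most: 3 reads correspond to 2.56 to 11.4 RPKM.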
